A study of Canis lupus familiaris with 18 samples.

Results

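The enzymes of amino acid catabolism examined here are 34 genes that break down the branched-chain amino acids leucine, valine and isoleucine, the propionate they give rise to, lysine and tryptophan, and glutamate, ornithine, proline and GABA. A gene was taken in where a probe set, a group of short probes for a transcript on the array, carried that gene's symbol alone in the platform annotation, and the probe set with the highest mean over all arrays stood for the gene. Of the 34 genes 32 had such a probe set, out of 15115 genes on the array. GLUD1 and GPT2 had none under those symbols. A gene was tested when its log2 value reached a floor of 4 in at least 4 arrays, which left 30 of the enzymes and 8656 genes in all. KYNU reached the floor in 0 arrays and DHTKD1 in 2, so neither was tested.

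The samples came from 9 intact female beagles, 4 years old, fed a performance dog food and randomised to a feeding plan for 24 weeks. In the ad libitum group 5 dogs ate freely and became obese, and in the control group 4 dogs were fed to hold their starting weight and stayed lean. Gonadal and subcutaneous fat of every dog was taken after an overnight fast and hybridised to Affymetrix canine arrays, which gives 18 arrays in 4 groups. The dogs of both feeding groups shared breed, sex, age and diet. Values are deposited log2 expression values, differences are on the log2 scale with the standard error of limma after ±, and a gene is said to pass where its limma p-value, adjusted by Benjamini-Hochberg over all 21484 tested probe sets, lies under 0.05. The number of arrays limits the precision. These p-values measure the spread between the arrays of a group. The main fit has no block for the dog, so it treats both depots of a dog as independent.

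Branched-chain amino acids first lose their amino group to a branched-chain aminotransferase and then their carboxyl group to the branched-chain ketoacid dehydrogenase complex, after which each carbon skeleton follows mitochondrial steps of its own into the citric acid cycle. Fat cells use these steps as a source of carbon for lipid synthesis. Lysine is broken down through saccharopine and aminoadipate and tryptophan through kynurenine. AASS catalyses the first steps of the saccharopine route, and AADAT, an aminotransferase that acts on aminoadipate as well as on kynurenine, serves both.

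All 10 adipocyte markers, such as ADIPOQ and PLIN1, had group means above the floor in each of the 4 groups, and 0 of 5 steroidogenic ovary markers did. Skeletal muscle transcripts stood 5.80 to 7.34 above the depot median in 3 arrays, the gonadal array of ad libitum dog 2 and the subcutaneous arrays of control dogs 3 and 4. Ciliated-cell transcripts stood 5.90 and 4.02 above it in the gonadal array of ad libitum dog 6 and the subcutaneous array of control dog 4. These 4 arrays are called the arrays with other tissue. Among the subcutaneous arrays of ad libitum dogs, that of dog 5 had the lowest adipocyte and the highest macrophage values. Results that these 5 arrays move are given with and without them. In bulk tissue fewer cells of a type and less RNA per cell cannot be told apart. Only the subcutaneous arrays belong to an earlier submission, so depot and array batch cannot be told apart either.

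The branched-chain and propionate enzymes, 20 genes and all of them tested, pointed one way with feeding in subcutaneous fat, but none passed. The difference between ad libitum and control dogs was positive for 20 of the 20, with a median of 0.61, against a median of 0.00 and 50.1% positive over all genes tested. Of all 30 enzymes 26 were positive and 4 negative, with a median of 0.49. The count of enzymes that passed in this comparison was 0 by limma, where 1.96% of all genes passed as higher and 0.347% as lower. At an unadjusted p under 0.05 there were 8 positive and 3 negative enzymes, 36.7% of the 30, beside 23.7% of all genes.

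The shared steps are carried by BCAT1 and BCAT2, the cytosolic and mitochondrial aminotransferases, by BCKDHA, BCKDHB, DBT and DLD, subunits of the dehydrogenase complex, and by BCKDK, the kinase that switches the complex off. Their 7 differences in subcutaneous fat lay between 0.35 and 0.94, with a median of 0.61. DBT, the transacylase core of the complex, stood at 6.80, 5.74, 7.40, 7.27 and 6.31 in ad libitum dogs 2, 5, 6, 7 and 8, against 5.94, 5.91, 5.81 and 5.87 in control dogs 1, 3, 4 and 9. Every ad libitum array but that of dog 5 lay above all control arrays. The difference was 0.82 ± 0.30 (limma adjusted p = 0.12). A dimmer DBT probe set gave 1.60 and passed (limma adjusted p = 0.0447), so the probe sets of this gene fall on both sides of the threshold.

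In the leucine branch IVD, isovaleryl-CoA dehydrogenase, is followed by MCCC1 and MCCC2, the subunits of methylcrotonyl-CoA carboxylase, and by AUH, the hydratase after it. The 4 differences in subcutaneous fat ran between 0.23 and 0.92. MCCC1, the biotin-bearing subunit, measured 9.33, 8.08, 8.75, 8.87 and 8.75 in ad libitum dogs 2, 5, 6, 7 and 8, against 7.86, 7.80, 8.08 and 8.34 in control dogs 1, 3, 4 and 9. The groups met only at ad libitum dog 5, whose array lay within the control range. MCCC1 had the smallest p of the 20 enzymes, with a difference of 0.73 ± 0.22 (limma adjusted p = 0.0761).

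The valine branch of ACAD8, HIBCH, HIBADH and ALDH6A1 had differences of 0.61 to 1.13 in subcutaneous fat, and ACADSB, the acyl-CoA dehydrogenase of the isoleucine branch, 0.44. ACAD8, isobutyryl-CoA dehydrogenase, stood at 9.43, 7.78, 9.42, 9.28 and 9.34 in ad libitum dogs 2, 5, 6, 7 and 8, against 8.04, 8.21, 8.20 and 8.42 in control dogs 1, 3, 4 and 9. Dog 5 was the lowest of these 9 arrays and the other ad libitum dogs were the highest. The ACAD8 difference was 0.83 ± 0.30 (limma adjusted p = 0.124). HIBCH, the hydrolase that frees hydroxyisobutyrate, differed by 0.87 ± 0.35 (limma adjusted p = 0.15).

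Propionyl-CoA from valine and isoleucine is carboxylated by PCCA and PCCB, turned over by the epimerase MCEE and rearranged to succinyl-CoA by the mutase MMUT. Their differences in subcutaneous fat lay between 0.02 and 0.77. MCEE read 12.23, 10.60, 11.46, 11.71 and 11.34 in ad libitum dogs 2, 5, 6, 7 and 8, against 10.87, 10.28, 10.71 and 10.93 in control dogs 1, 3, 4 and 9. Dog 5 alone among the ad libitum dogs lay inside the control range. The MCEE difference was 0.77 ± 0.26 (limma adjusted p = 0.105) and that of MMUT 0.47 ± 0.19 (limma adjusted p = 0.158).

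**Figure D1:**
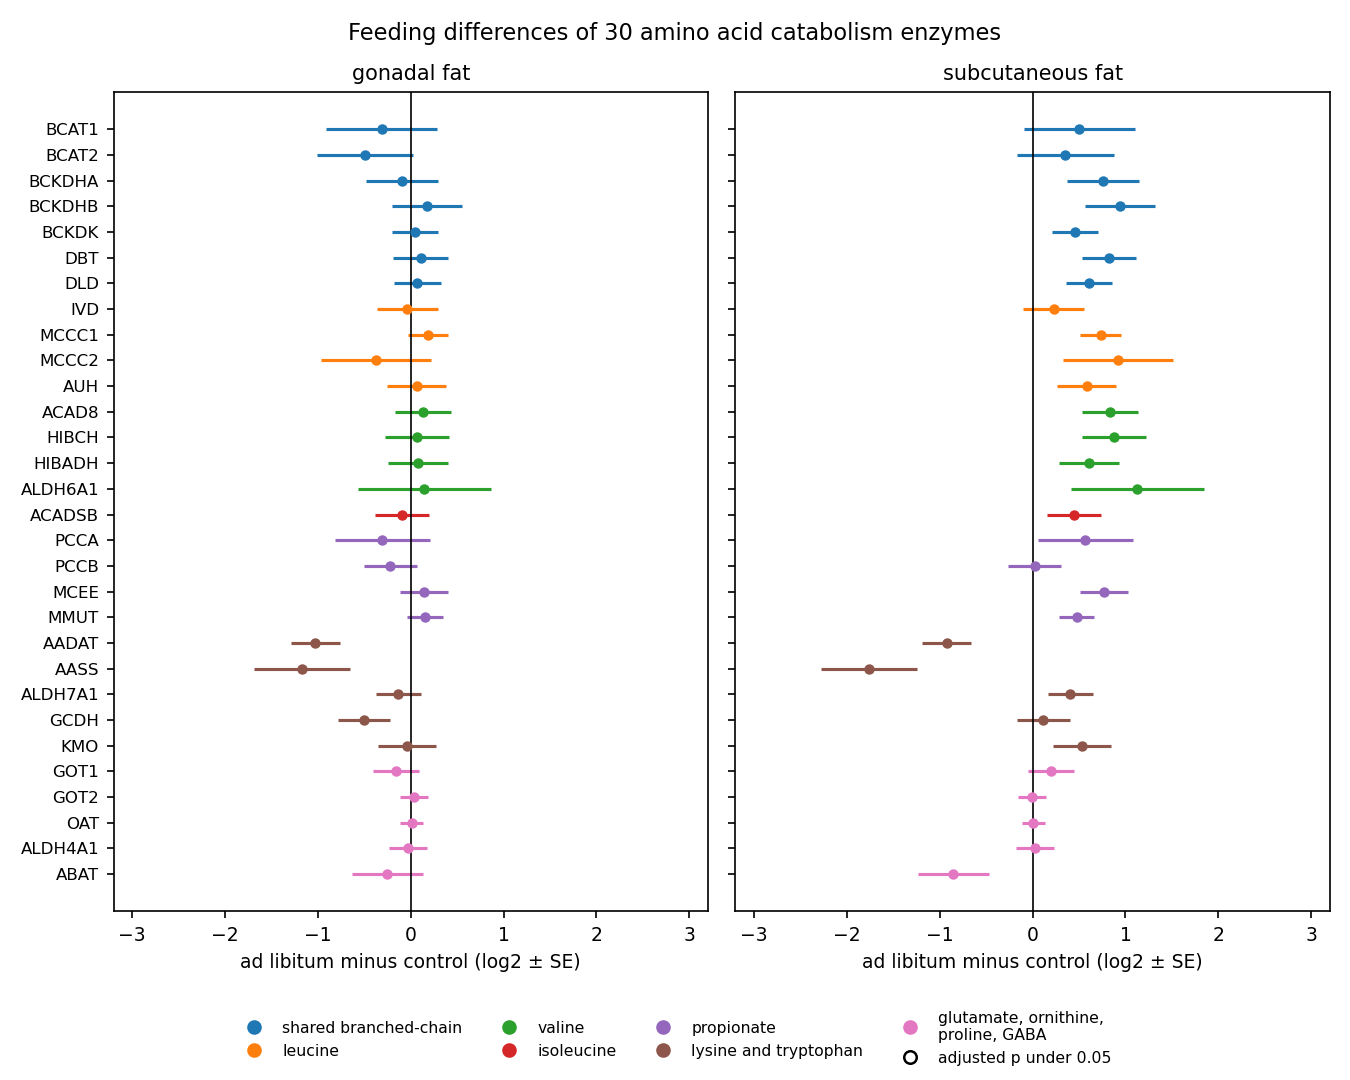
Difference between ad libitum and control dogs (log2, point with its standard error) for the 30 tested enzymes, coloured by route, in gonadal fat on the left and subcutaneous fat on the right. The 20 branched-chain and propionate enzymes lie right of 0 in subcutaneous fat and on both sides of it in gonadal fat, while AADAT and AASS lie left of 0 in both, and no enzyme passed in either depot. AASS in subcutaneous fat and KMO in gonadal fat involve group means below the floor.

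The subcutaneous array of dog 5 decided the count. In a fit without it 8 enzymes passed as higher, BCKDHB, DBT, MCCC1, AUH, ACAD8, HIBCH, MCEE and MMUT, and 3 as lower, AADAT, AASS and ABAT, while the shares of all genes that passed became 9.33% higher and 4.52% lower. The median of the 20 branched-chain enzymes was then 0.87. Without that array and the arrays with other tissue MCCC1 (0.82, limma adjusted p = 0.0462) and ACAD8 (1.13, limma adjusted p = 0.0305) passed as higher and AADAT and AASS as lower, beside 2.8% of all genes higher and 1.06% lower. Without the 4 arrays with other tissue alone none passed, 17 of the 20 differences were positive, and their median was 0.32.

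The 10 adipocyte markers had the same direction as the branched-chain enzymes in subcutaneous fat, 10 of 10 positive with a median difference of 0.72. The 7 stromal markers were all negative, with a median of -0.54. The 9 tested muscle markers were all negative with a median of -3.51, and 2 of the 4 control arrays are among those with muscle transcripts. For the actin control probe sets, the 3' signal less the 5' signal, larger where RNA is shorter, was 3.49 ± 0.77 in ad libitum and 4.75 ± 1.02 in control arrays (SD, n = 5 and 4, exact permutation p = 0.0873 over 126 regroupings, two-sided). With that signal as a covariate 16 of the 20 branched-chain differences were positive and their median was 0.31. The part of these 4 measures in the feeding difference was not tested further.

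In gonadal fat the 20 enzymes had feeding differences of both signs. The differences between ad libitum and control dogs were positive for 12 and negative for 8, ran between -0.49 and 0.19, and had a median of 0.06. The enzymes that passed numbered 0, as did all genes, 0% higher and 0% lower by limma. The split depended on single dogs: with a dog left out, between 6 (without dog 3) and 17 (without dog 6) of the 20 were positive, and without the arrays with other tissue 9 were. An unadjusted p under 0.05 was reached by 0 of the 20 and by 2.4% of all genes tested. BCAT2, the aminotransferase of mitochondria, differed by -0.49 ± 0.52 and MCCC1 by 0.19 ± 0.22 (both limma adjusted p = 0.99994).

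The change of the feeding difference from one depot to the other was negative for 20 of 20 branched-chain enzymes, with a median of -0.66 for gonadal minus subcutaneous fat, against -0.01 over all genes. No enzyme passed, and no gene did (0% higher, 0% lower by limma). The smallest p-values belonged to MCCC1, at -0.55 ± 0.31, DBT, at -0.71 ± 0.42, MCEE, at -0.63 ± 0.37, HIBCH, at -0.81 ± 0.49, and ACAD8, at -0.70 ± 0.43, all with a limma adjusted p of 0.748. At an unadjusted p under 0.05 there were 0 of 30 enzymes and 6.32% of all genes. Without the arrays with other tissue 19 of the 20 were negative and the median was -0.32, and without the subcutaneous array of dog 5 it was -0.83. The 10 adipocyte markers were also negative in 10 of 10, with a median of -0.61. With the actin signal as a covariate 18 of the 20 were negative and the median was -0.20.

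Between depots none of the 20 branched-chain enzymes passed in either feeding group. Gonadal minus subcutaneous fat was positive for 11 of the 20 in ad libitum dogs, with a median of 0.09, and for 19 of the 20 in control dogs, with a median of 0.68. Over all genes the medians were -0.02 in ad libitum and 0.02 in control dogs. By route, the medians in ad libitum dogs were -0.05 for the shared steps, 0.16 for leucine, -0.01 for valine, 0.27 for the isoleucine enzyme ACADSB and 0.15 for propionate. In control dogs they were 0.53, 0.73, 0.72, 0.81 and 0.47 in the same order. In ad libitum dogs the direction rested on single dogs: 6 were positive and 14 negative without the subcutaneous array of dog 5 (median -0.16), and 15 and 5 without dog 6. In control dogs the median was 0.43 without the arrays with other tissue.

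No enzyme passed in the test of the change between feeding groups, given above. These comparisons share arrays with those of feeding, since the subcutaneous control arrays enter both, and the 10 adipocyte markers had 7 of 10 positive differences in ad libitum dogs (median 0.09) and 10 of 10 in control dogs (median 0.73). In control dogs the 9 muscle markers were all negative (median -4.16), as were the 7 stromal markers (median -0.61). The actin signal averaged 2.91 ± 0.91 in their gonadal and 4.75 ± 1.02 in their subcutaneous arrays (SD, n = 4). With it as a covariate 16 of the 20 differences were positive in control dogs, with a median of 0.23. The part of these measures in the depot difference was not tested further.

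MCCC1 stood at 9.40, 8.87, 8.50, 8.92 and 9.04 in the gonadal fat of ad libitum dogs 2, 5, 6, 7 and 8, and differed from the subcutaneous values given above by 0.19 ± 0.21. It stood at 8.88, 8.55, 8.85 and 8.76 in the gonadal fat of control dogs 1, 3, 4 and 9 (subcutaneous values above). These gonadal arrays lay above all subcutaneous ones of control dogs, and every control dog had its higher value in gonadal fat. The difference in control dogs was 0.74 ± 0.23 (limma adjusted p = 0.0886), and MMUT differed by 0.54 ± 0.20 (limma adjusted p = 0.145). In a fit that pairs the depots with the dog as a random replicate block MCCC1 passed (limma adjusted p = 0.0421), and with the dog as a fixed replicate block it did not (limma adjusted p = 0.0556).

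BCAT1 had the most negative depot difference of the shared enzymes in ad libitum dogs, where 5 of those 7 were negative. Gonadal fat of dogs 2, 5, 6, 7 and 8 read 5.62, 5.00, 2.94, 5.83 and 5.49, against 5.95, 6.86, 6.02, 6.21 and 6.98 in their subcutaneous fat. The depots did not overlap and all 5 dogs had the lower value in gonadal fat, while the gonadal value of dog 6 lay below the floor. The difference was -1.43 ± 0.56 (limma adjusted p = 0.132), and in control dogs it was -0.61 ± 0.63. BCAT2 differed by 0.46 ± 0.49 and 1.31 ± 0.55 in the same comparisons. Without the arrays with other tissue BCAT1 differed by -0.97 in ad libitum and -1.10 in control dogs (limma adjusted p = 0.242 and 0.387).

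Of the 7 enzymes of lysine and tryptophan breakdown AADAT and AASS held the lowest p-values of the 30 for feeding in both depots, and AADAT was the only enzyme to pass between depots in control dogs. Both had lower values in ad libitum than in control dogs and higher values in gonadal than in subcutaneous fat. For feeding this is the opposite sign to that of the branched-chain enzymes in subcutaneous fat. The remaining members of the routes did not share the pattern of AADAT and AASS in subcutaneous fat, where ALDH7A1, GCDH and KMO had differences of 0.41, 0.12 and 0.53.

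AADAT in gonadal fat measured 6.34, 6.77, 6.10, 6.71 and 6.85 in ad libitum dogs 2, 5, 6, 7 and 8, against 7.55, 7.78, 7.58 and 7.41 in control dogs 1, 3, 4 and 9. All ad libitum values lay below all control values. AADAT was the only enzyme of the 30 with groups that did not overlap in this comparison, as 0.531% of all genes did with lower and 0.266% with higher values in ad libitum dogs. The difference was -1.03 ± 0.26 (limma adjusted p = 0.99994).

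In subcutaneous fat AADAT read 4.78, 5.62, 5.01, 5.90 and 5.35 in ad libitum dogs 2, 5, 6, 7 and 8, against 6.95, 5.97, 5.64 and 6.46 in control dogs 1, 3, 4 and 9. The groups overlapped only in that ad libitum dog 7 lay above control dog 4. The difference was -0.92 ± 0.26 (limma adjusted p = 0.0696), and the change between depots was -0.10 ± 0.37 (limma adjusted p = 0.954). Without the arrays with other tissue the feeding difference was -1.37 in subcutaneous and -0.80 in gonadal fat (limma adjusted p = 0.0853 and 0.808). The change between depots then turned positive. Without the arrays with other tissue and that of dog 5 the subcutaneous difference was -1.45 (limma adjusted p = 0.0188).

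AASS in subcutaneous fat lay below the floor in all 5 ad libitum dogs, with 2.75, 2.71, 3.01, 2.82 and 2.68 in dogs 2, 5, 6, 7 and 8, against 5.50, 3.54, 4.25 and 4.93 in control dogs 1, 3, 4 and 9. The groups did not overlap, which held for AASS alone among the 30 enzymes, and for 4.33% of all genes with lower and 6.12% with higher ad libitum values. Control dog 3 also lay below the floor, so its distance from the ad libitum arrays is not a measured one. With the ad libitum mean set to the floor, AASS was at least 1.47-fold lower (limma adjusted p = 0.0735). In gonadal fat it measured 3.69, 5.89, 5.67, 5.24 and 4.96 in ad libitum dogs and 6.23, 7.84, 4.95 and 6.04 in control dogs, in the same order of dogs. These groups overlapped, and the difference was -1.17 ± 0.51 (limma adjusted p = 0.99994).

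**Figure D2:**
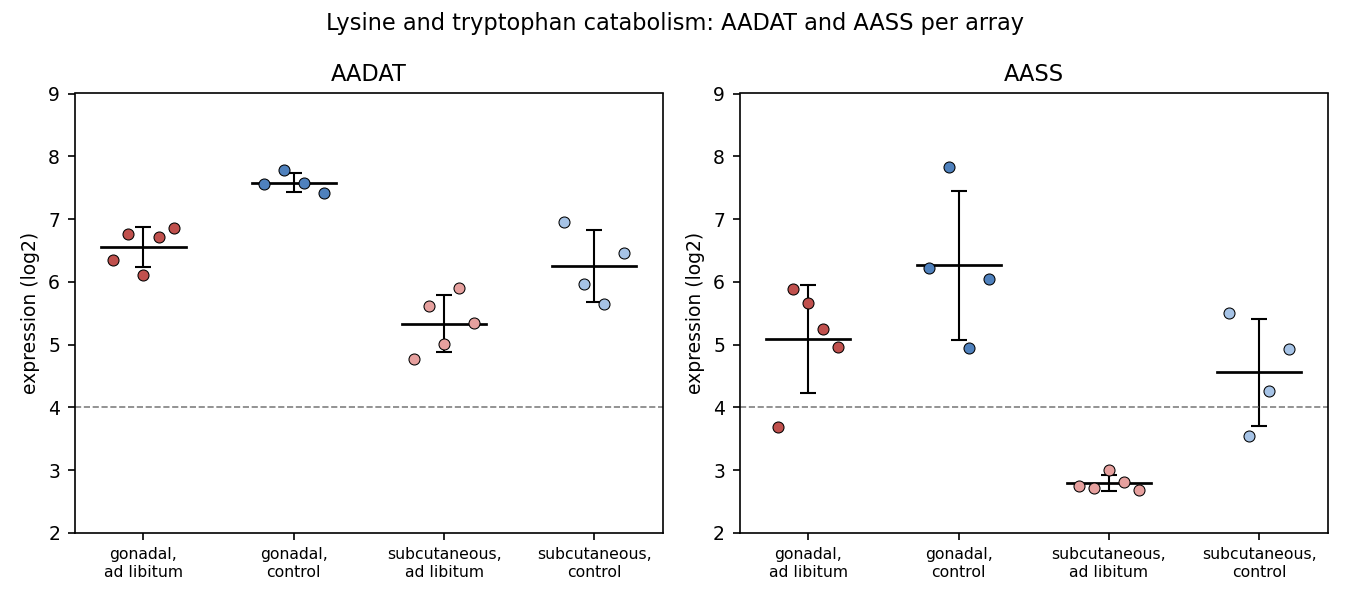
Expression (log2) of AADAT and AASS in each array by depot and feeding group, with the mean (line) and SD (bar) over 5 ad libitum or 4 control dogs and the floor of 4 dashed. AADAT falls into separate ranges by feeding in gonadal fat, and AASS lies below the floor in all 5 subcutaneous arrays of ad libitum dogs.

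Averaged over both depots of a dog, AADAT was 5.94 ± 0.36 in ad libitum and 6.92 ± 0.26 in control dogs, and AASS 3.94 ± 0.46 and 5.41 ± 0.56 (SD, n = 5 and 4). Neither overlapped between the groups, as 1.87% of all genes did with lower and 3.22% with higher ad libitum values. For AASS these averages include values below the floor. The AADAT difference was -0.98 ± 0.20 (limma adjusted p = 0.228). With ad libitum arrays below the floor set to it, AASS was at least 1.78-fold lower (limma adjusted p = 0.227). In this fit, chosen after seeing the data, 0 genes passed (0% higher, 0% lower by limma), while 5 of the 30 enzymes and 1140 of 8656 genes had an unadjusted p under 0.05.

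Between depots AADAT passed in both feeding groups and AASS in ad libitum dogs. In gonadal fat of ad libitum dogs 2.7% of all genes passed as higher and 4.75% as lower, beside 2 higher and 0 lower of the 30 enzymes. In control dogs 1.14% of all genes passed as higher and 1.8% as lower, beside 1 higher and 0 lower enzyme. With the dog as a random replicate block 3 enzymes passed as higher in ad libitum dogs, beside 4.64% of all genes (7.46% lower), and 2 in control dogs, beside 2.58% (3.56% lower). KMO, the 1 enzyme called lower there, passed the filter only through subcutaneous fat, so its call is not drawn on. With a fixed replicate block 2 passed as higher in ad libitum dogs, beside 3.32% (5.49% lower), and 2 in control dogs, beside 1.54% (2.3% lower). In ad libitum dogs AADAT averaged 6.55 ± 0.32 in gonadal and 5.33 ± 0.45 in subcutaneous fat (SD, n = 5), a rise of 1.22 ± 0.25 (limma adjusted p = 0.00824). In control dogs it averaged 7.58 ± 0.15 in gonadal and 6.25 ± 0.57 in subcutaneous fat (SD, n = 4), a rise of 1.33 ± 0.28 (limma adjusted p = 0.0181). The depots did not overlap in either group, and gonadal fat had the higher value in 9 of 9 dogs. In control dogs the call rests on few arrays: without the arrays with other tissue the difference was 0.88 (limma adjusted p = 0.135), and with the actin signal as a covariate 1.25 (limma adjusted p = 0.111).

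AASS averaged 5.09 ± 0.86 in gonadal and 2.79 ± 0.13 in subcutaneous fat of ad libitum dogs (SD, n = 5), and rose at least 2.13-fold in gonadal fat (limma adjusted p = 0.01). The depots did not overlap and all 5 dogs had the higher value in gonadal fat, though in dog 2 both values lay below the floor. AASS reached the floor in 4 of 5 gonadal arrays of ad libitum dogs and 4 of 4 of control dogs, and in 0 of 5 and 3 of 4 of their subcutaneous arrays, so it passed the filter on low values mainly through gonadal fat. With no filter it also passed the test (limma adjusted p = 0.0263). In control dogs the means were 6.26 ± 1.19 and 4.56 ± 0.85 (SD, n = 4), with a difference of 1.71 ± 0.54 (limma adjusted p = 0.0932). Gonadal minus subcutaneous fat was 4.30 in control dog 3 and between 0.70 and 1.11 in the other control dogs. Without the arrays with other tissue, that of dog 3 among them, the difference was 1.05 (limma adjusted p = 0.392). In ad libitum dogs both calls hold without those arrays, with a difference of 1.45 for AADAT and at least 2.58-fold for AASS (limma adjusted p = 0.00488 and 0.00916), and both miss the threshold without dog 8 (limma adjusted p = 0.0531 and 0.0522). AASS also misses it without dog 5 or dog 7 (limma adjusted p = 0.0506 and 0.0517).

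Mesothelial markers, of the cells that line the abdominal cavity, moved with the depot too. Of the 5 tested, 4 passed as higher in gonadal fat of ad libitum dogs, beside 2.7% of all genes, and 1 had a negative difference, of -2.33. The median over the 5 was 4.38. In control dogs 0 passed, 4 were positive and 1 negative, with a median of 2.50. At an unadjusted p under 0.05 there were 3, beside 19.6% of all genes. On these markers the subcutaneous array of control dog 4 stood 4.64 above the depot median, against -0.004 to 0.06 in the other subcutaneous control arrays. UPK3B, WT1 and KRT18 had means below the floor in subcutaneous fat of ad libitum dogs, and CALB2 in gonadal fat. The sizes of these differences are therefore not measured, and the calls are not drawn on. Macrophage markers had negative differences in both feeding groups. The part of these cells in the values of AADAT and AASS was not tested.

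**Figure D3:**
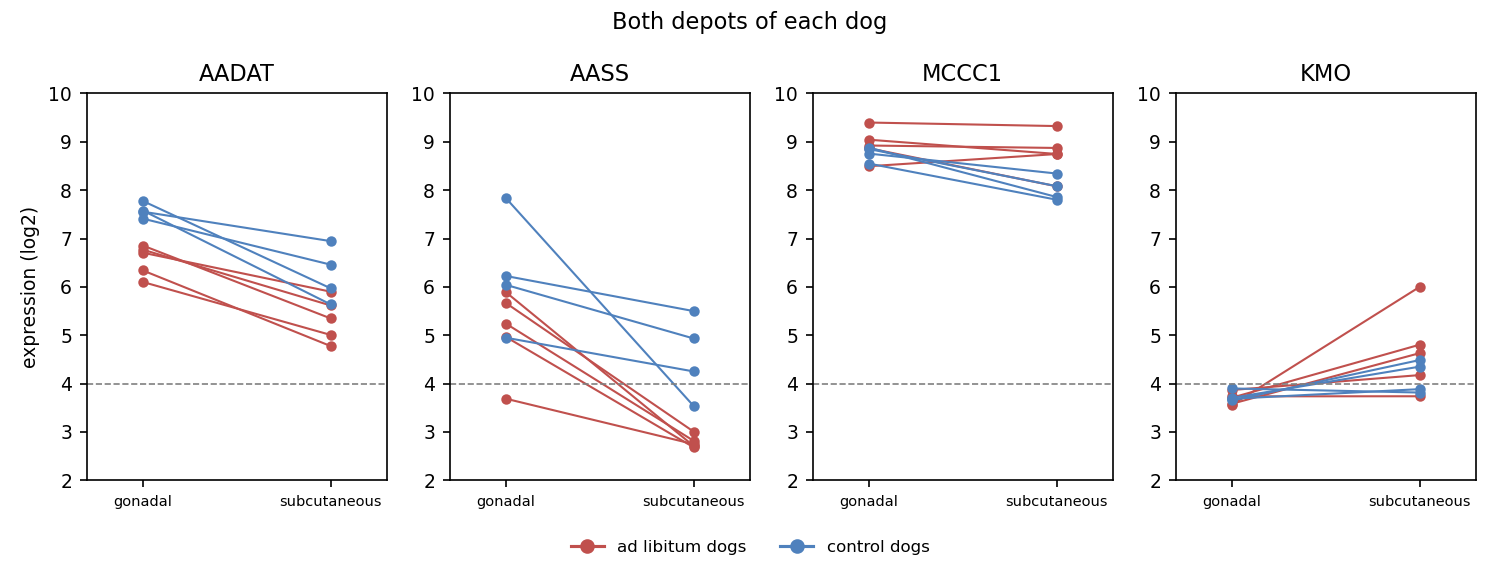
Expression (log2) of AADAT, AASS, MCCC1 and KMO in gonadal fat (left) and subcutaneous fat (right) of each dog, joined by a line, with ad libitum and control dogs in different colours and the floor of 4 dashed. AADAT and AASS were higher in gonadal fat in 9 of 9 dogs, MCCC1 in 8 of 9 and KMO in 1 of 9. Both depots lie below the floor for AASS in dog 2 and for KMO in dogs 1, 2 and 3, so these directions are not measured.

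Groups that do not overlap between depots were counted for all enzymes. In ad libitum dogs AADAT and AASS lay wholly higher in gonadal fat and BCAT1 wholly lower, beside 4.03% and 5.45% of all genes. For AASS this rests on values below the floor, among them the gonadal value of dog 2, 3.69. In control dogs 5 enzymes lay wholly higher, GCDH, MCCC1, BCKDHB, DBT and AADAT, and GOT2 wholly lower, beside 4.96% and 8.16% of all genes. These genes were listed after their values were seen. A share of 5 in 30 stands against the background without a test.

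GCDH, glutaryl-CoA dehydrogenase, acts where the lysine and tryptophan routes have joined. Its gonadal values were 9.86, 9.17, 9.77 and 9.51 in control dogs 1, 3, 4 and 9, against 9.00, 8.05, 8.71 and 9.16 in their subcutaneous fat. The depots did not overlap, by a margin of 9.17 against 9.16. The difference was 0.84 ± 0.30 (limma adjusted p = 0.125), and 0.49 without the arrays with other tissue (limma adjusted p = 0.455). The fit with the dog as a fixed replicate block, which pairs the depots, called it (limma adjusted p = 0.0436), while the random replicate block did not (limma adjusted p = 0.0626). For feeding in gonadal fat GCDH differed by -0.50 ± 0.28 (limma adjusted p = 0.99994).

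KMO, kynurenine 3-monooxygenase, opens the branch of the kynurenine route that leads towards quinolinate and is known from macrophages. It reached the floor in 6 arrays only, all subcutaneous: 6.00, 4.18, 4.63 and 4.80 in ad libitum dogs 5, 6, 7 and 8, and 4.49 and 4.35 in control dogs 4 and 9. KMO thus passed the filter on low values only through the depot where it is high, and no test between depots is drawn on. The highest KMO value belongs to the subcutaneous array of dog 5, which also has the highest macrophage value of the 18 arrays. The 10 tested macrophage markers were lower in gonadal fat in 10 of 10 in both feeding groups, with medians of -0.86 in ad libitum and -0.90 in control dogs. The part of macrophage content in the KMO values was not tested.

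ALDH7A1, which oxidises aminoadipate semialdehyde in lysine breakdown, had differences of -0.13 for feeding in gonadal fat, 0.41 for feeding in subcutaneous fat, 0.07 for depot in ad libitum dogs and 0.61 for depot in control dogs, and none passed. The dimmest of its 5 probe sets passed for feeding in subcutaneous fat (0.97, limma adjusted p = 0.0403). DHTKD1, a subunit of the oxoadipate dehydrogenase between AADAT and GCDH, reached the floor only in gonadal fat of control dogs 4 and 9, at 4.86 and 4.21. KYNU, kynureninase, lay between 2.12 and 2.30 in all arrays.

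The last group handles glutamate and its neighbours: GOT1 and GOT2, the aspartate aminotransferases, OAT, ornithine aminotransferase, ALDH4A1, which completes proline breakdown, and ABAT, GABA transaminase. ABAT held the same signs as AADAT and AASS in all 4 comparisons. In gonadal fat it measured 6.58, 6.40, 7.81, 5.90 and 6.09 in ad libitum dogs 2, 5, 6, 7 and 8, against 5.17, 6.54, 4.70, 5.33 and 5.50 in their subcutaneous fat. The depots overlapped, and gonadal fat had the higher value in 4 of 5 dogs. The difference was 1.11 ± 0.36 (limma adjusted p = 0.0704), and it passed with the dog as a random replicate block (limma adjusted p = 0.0463), not as a fixed replicate block (limma adjusted p = 0.124). It also passed without the subcutaneous array of dog 5 (1.38, limma adjusted p = 0.0208), but not without the 4 arrays with other tissue alone. Gonadal minus subcutaneous fat was 3.1 in dog 6, whose gonadal array is among these 4, and between -0.14 and 1.41 in the other ad libitum dogs.

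GOT1, GOT2, OAT and ALDH4A1 had feeding differences within -0.16 and 0.20 in both depots. Between depots OAT was higher in gonadal fat in 9 of 9 dogs and GOT2 lower in 9 of 9, yet neither passed. The OAT differences were 0.24 ± 0.12 in ad libitum and 0.24 ± 0.13 in control dogs, and those of GOT2 -0.35 ± 0.14 and -0.40 ± 0.16. Without the arrays with other tissue GOT2 passed in ad libitum dogs (-0.55, limma adjusted p = 0.0267). A second GOT2 probe set gave the opposite sign in control dogs, at 0.34. The other enzymes with several tested probe sets, 21 of 22, had the same sign on all of them in that comparison.

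**Figure D4:**
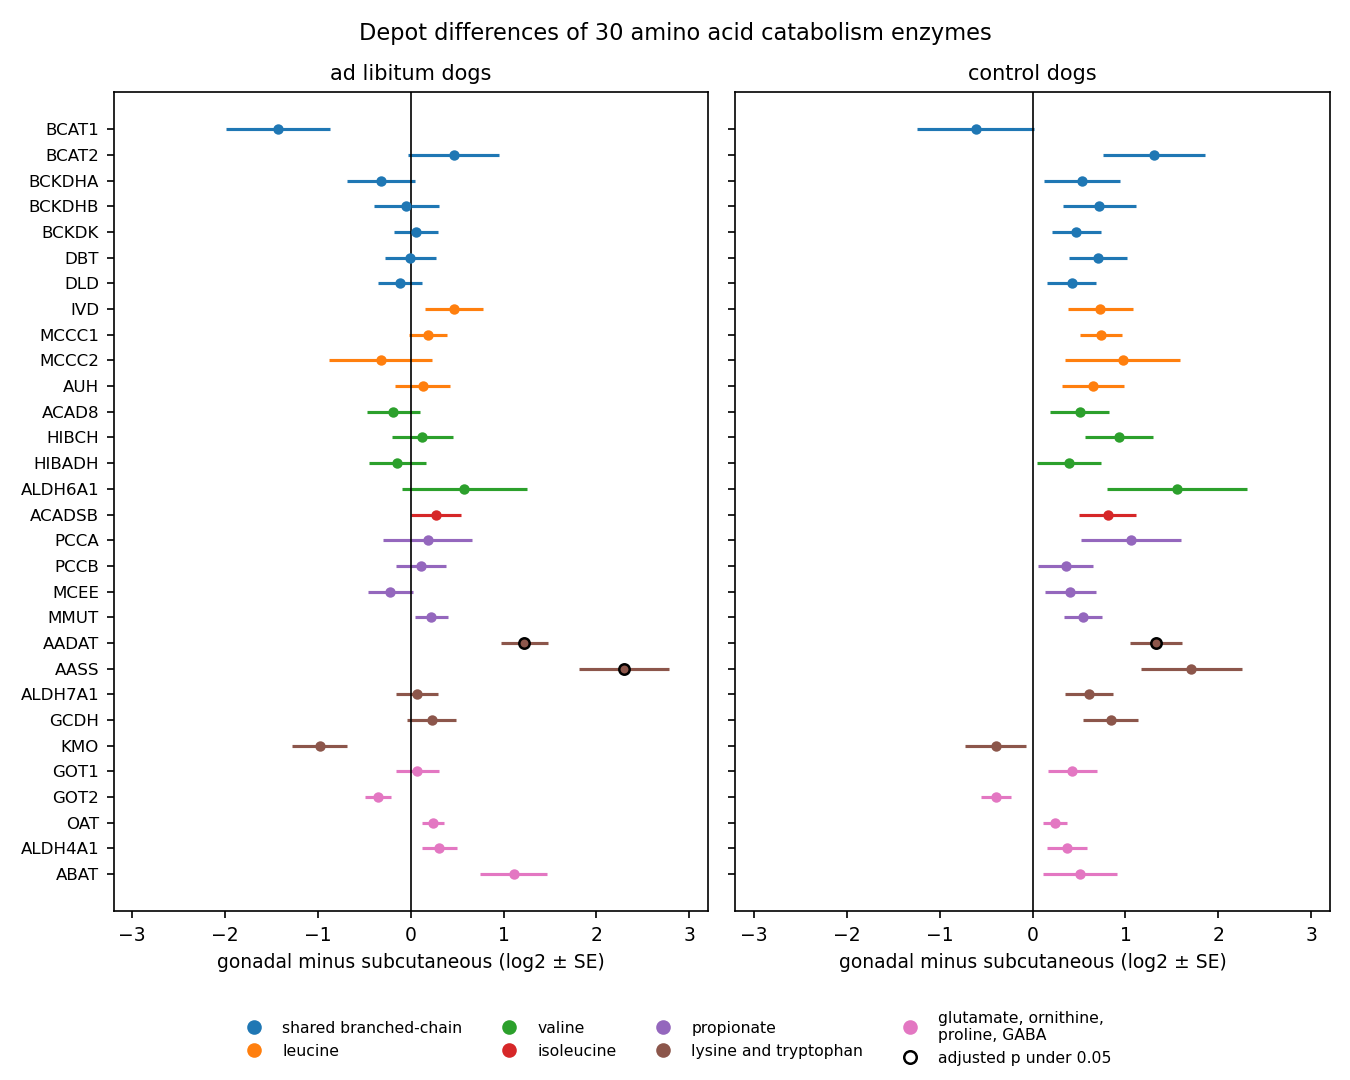
Difference between gonadal and subcutaneous fat (log2, point with its standard error) for the 30 tested enzymes, coloured by route, in ad libitum dogs on the left and control dogs on the right, with enzymes that passed ringed in black. AADAT passed in both and AASS in ad libitum dogs, and 19 of 20 branched-chain and propionate enzymes lie right of 0 in control dogs. AASS in ad libitum dogs and KMO in both are set against group means below the floor.

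The routes were also set beside each other within each array. A list's value in an array is the mean deviation of its genes from their 18-array means. For the 20 branched-chain and propionate enzymes it averaged 0.13 ± 0.47 in gonadal fat of ad libitum dogs, 0.16 ± 0.55 in gonadal fat of control dogs, 0.13 ± 0.50 in subcutaneous fat of ad libitum dogs and -0.50 ± 0.32 in subcutaneous fat of control dogs. For AADAT and AASS the values were 0.34 ± 0.49, 1.44 ± 0.65, -1.42 ± 0.22 and -0.08 ± 0.68 in the same order (SD, n = 5, 4, 5 and 4). AADAT and AASS minus the branched-chain enzymes gave -2.45, -0.66, -1.59, -1.39 and -1.69 in the subcutaneous arrays of ad libitum dogs 2, 5, 6, 7 and 8, against 0.99, 0.05, 0.23 and 0.40 in those of control dogs 1, 3, 4 and 9. The groups did not overlap. The lists were chosen with earlier results of these data known and differ in sign in these same arrays, so this gap is no test. In gonadal fat AADAT and AASS minus the branched-chain enzymes gave -1.23, 0.82, 0.94, 0.30 and 0.18 in ad libitum dogs. In control dogs it was 0.77, 2.94, 0.37 and 1.02, which overlaps with the ad libitum values. AASS lies below the floor in 7 of the 18 arrays, so these values mix a measured gene with one near background.

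The arrays fell in much the same order on the branched-chain enzymes as on the adipocyte markers, and in another order on AADAT and AASS. The 5 arrays with the lowest adipocyte value were also the 5 with the lowest branched-chain value. They were the subcutaneous arrays of control dogs 3 and 4 and ad libitum dog 5 and the gonadal arrays of ad libitum dog 6 and control dog 3, with branched-chain values of -0.78, -0.77, -0.66, -0.55 and -0.61. The gonadal array of control dog 3 had the highest value of AADAT and AASS, 2.32, and the subcutaneous array of ad libitum dog 2, which ranked 17 of 18 on the adipocyte and branched-chain lists, had the lowest, -1.72. The part of adipocyte content in these values was not tested.

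**Figure D5:**
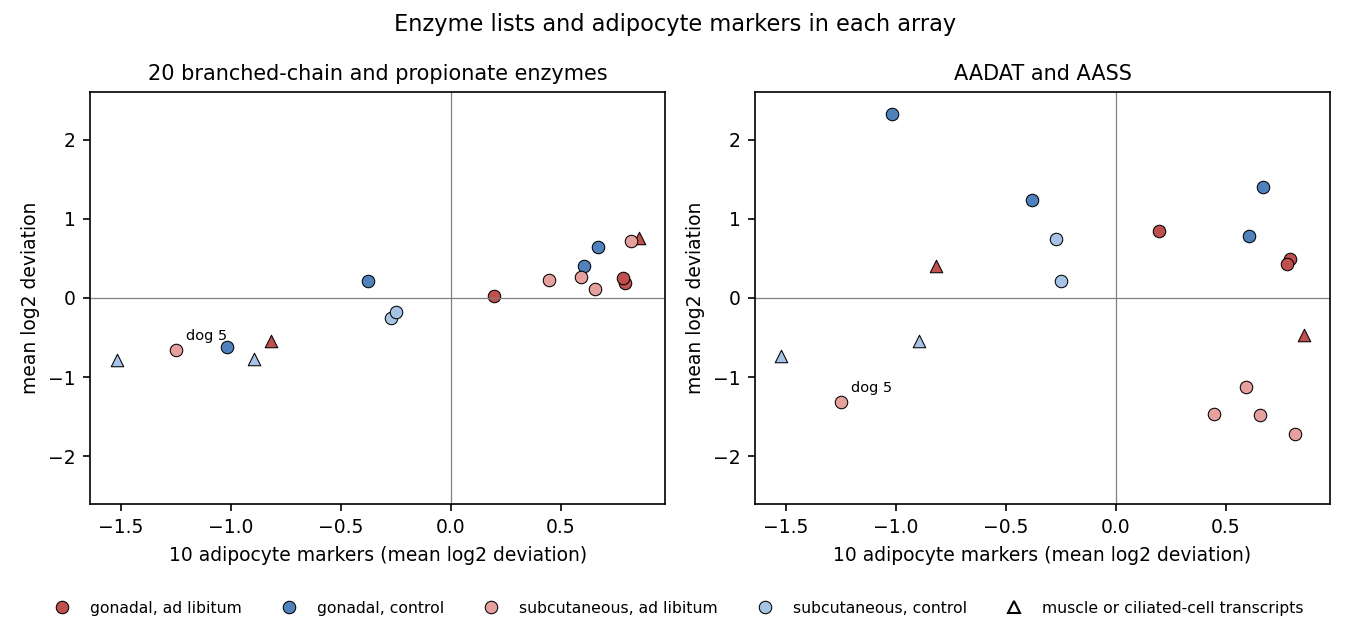
Mean log2 deviation of 20 branched-chain and propionate enzymes (left) and of AADAT and AASS (right) against that of 10 adipocyte markers, 1 point per array, coloured by depot and feeding group, with triangles for the 4 arrays with other tissue. The left points rise along the adipocyte axis, while on the right the subcutaneous arrays of ad libitum dogs lie lowest, between -1.72 and -1.13.

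Genes next to these enzymes in the pathways gave 0 calls by limma on the branched-chain and on the lysine and tryptophan side in each of the 5 comparisons. Of 12 further branched-chain genes, such as the thiolase ACAT1 and the electron transfer genes ETFA and ETFDH, 12 had positive feeding differences in subcutaneous fat, with a median of 0.62 and 7 at an unadjusted p under 0.05. Of 9 further lysine and tryptophan genes 9 were positive, also with a median of 0.62, and 4 had an unadjusted p under 0.05. Over all genes 50.1% were positive in this comparison and 23.7% had an unadjusted p under 0.05. In gonadal fat the medians were 0.01 and 0.15. KLF15, a transcription factor known to control amino acid breakdown, differed by 0.13 ± 0.30 with feeding in subcutaneous fat (limma adjusted p = 0.825).

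Among 18 other genes of amino acid metabolism 3 passed as higher and 1 as lower with feeding in subcutaneous fat, beside 1.96% and 0.347% of all genes. SHMT2, the mitochondrial enzyme that turns serine into glycine, rose by 1.26 ± 0.28 and GCSH, a carrier protein of glycine cleavage, by 0.92 ± 0.24 (limma adjusted p = 0.0331 and 0.0491). ASNS, asparagine synthetase, rose by 1.63 ± 0.40, and CDO1, cysteine dioxygenase, fell by 3.10 ± 0.55 (limma adjusted p = 0.0447 and 0.0183). Between depots in ad libitum dogs SHMT2 averaged 7.27 in gonadal fat, against 8.98 in subcutaneous fat, and fell by 1.70 ± 0.26 (limma adjusted p = 0.00135). In the same comparison ASNS fell by 1.60 ± 0.37 and CDO1 rose by 3.32 ± 0.52 (limma adjusted p = 0.0173 and 0.00154), beside 2.7% higher and 4.75% lower of all genes. Both comparisons rest on the same subcutaneous arrays. In gonadal fat, between depots in control dogs and for the change between depots 0 of the 18 passed by limma, with 0, 4 and 5 at an unadjusted p under 0.05. Over all genes 2.4%, 19.6% and 6.32% had such a p, in the same order.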

How the data were processed

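The authors made the deposited values, taken here as log2 expression, with GCRMA, per the submitters' processing notes. Each array has 1 column. Neither log base nor GCRMA version is stated in the labels. Of 43035 probe sets 111 array controls were left out. Members, routes, pathway lists and marker lists were chosen with earlier results of these data known. Named are enzymes that passed in any comparison, the 5 with the smallest p per comparison, AADAT and AASS, and up to 4 per pathway list among those that passed; any other gene named was chosen after its values were seen.

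A model of 4 group means over the 18 arrays, without a block for the dog, was fitted in limma 3.58.1 (R 4.3.3, block correlation from statmod 1.5.0) (14 residual degrees of freedom, 2.54 added by moderation), after a filter at log2 4 in at least 4 arrays. Tests were two-sided with Benjamini-Hochberg adjustment over 21484 probe sets. The fit was tested on simulated data. Where the group mean of a single enzyme lay below the floor the difference is given as a bound, while medians over lists take such means as they stand. The depots pair by the animal number in the labels, that is, by the same dog. Deviations from the group means correlated between the depots of a dog at -0.05 to 0.53. Alternatives were other filters, scalings, moderation, probe set rules, blocks and the actin signal as a covariate, and leaving out each dog or the arrays that stand apart.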

Additional observations from a re-analysis of the deposited data

Results flagged for a closer look

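Of 120 combinations of an enzyme and a group, 11 held an array farther from the rest than Dixon's 95% critical value allows, where chance flags about 1 in 20. The gonadal array of ad libitum dog 6 was lowest for BCAT1 at 2.94 (the others 5.00 to 5.83), DLD at 10.11 (11.18 to 11.41), HIBCH at 9.60 (10.60 to 10.85), HIBADH at 11.76 (12.59 to 12.92) and MMUT at 8.45 (9.08 to 9.29). That array carries ciliated-cell transcripts. The gonadal array of ad libitum dog 2, which carries muscle transcripts, was highest for MCEE at 11.72 (11.00 to 11.20) and GCDH at 9.82 (8.75 to 9.01).

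The subcutaneous array of ad libitum dog 5 was lowest for AUH at 9.63 (10.88 to 11.38) and ACAD8 at 7.78 (9.28 to 9.43). In control dogs the gonadal array of dog 3 was lowest for ALDH6A1, the last enzyme of the valine branch, at 3.37 (6.19 to 6.72), and the subcutaneous array of dog 4 highest for ABAT at 6.97 (6.03 to 6.14). The part of other tissue in these values was not tested.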

How the results depend on the processing

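Of 892 values recomputed under alternatives 834 were counted as unchanged. These were genes that stayed on their side of the threshold, medians that stayed within the replicate spread, and counts of passed enzymes within a set ratio. A gene that passed in neither fit could change its sign and still be counted as unchanged. None of the called differences turned its sign. For feeding in subcutaneous fat the count of enzymes past the threshold, 0, ranged from 0 to 8 when a dog was left out (1 without dog 3, 8 without dog 5), was 11 without the subcutaneous array of dog 5 and 4 without that array and the 4 arrays with other tissue. For feeding in gonadal fat and the change between depots it was 0 in every fit run. For depot in ad libitum dogs the count of 2 became 1 at a filter of log2 6, which AASS did not pass, 4 with a random replicate block, 5 with the actin covariate and 4 without the arrays with other tissue and dog 5. Leaving out a dog gave 0 to 3 (AASS lost without dogs 5, 7 and 8, AADAT without dog 8). For depot in control dogs the count of 1 became 2 with the dog as a random replicate block, 2 with a fixed replicate block and 2 without the subcutaneous array of dog 5, and 0 in a fit to only those arrays, with the actin covariate, and without the arrays with other tissue (with or without dog 5). Leaving out a dog gave 0 to 1, with 0 without dog 3 or dog 4 (AADAT limma adjusted p = 0.114 and 0.0896). The paired fits changed no calls beyond those of MCCC1, GCDH, KMO and ABAT, each in 1 of the 2 fits. KMO is included in these counts where it was called, though it passed the filter only through subcutaneous fat. For most of these fits the share of all genes that passed was not counted. A change in the count is there not set against a background. The median of the 30 enzymes moved beyond the replicate spread with the actin covariate, to 0.23 (from 0.57) for depot in control dogs and to -0.16 (from -0.54) for the change between depots. Fits without the subcutaneous array of dog 5 alone or with the 4 others, and the means over depots, were chosen after seeing the data. The number of arrays, and for AASS, KMO and ALDH6A1 signal near the floor, limit what these data can show.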
